A study of Mus musculus with 23 samples.

Results

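Genes of neutrophils and the signals that attract them were followed through the endometrium of 23 mouse uterine horns by bulk RNA sequencing. The set holds 8 genes chosen by name, of 17708 features tested. Csf3r, Cxcr2, S100a8 and S100a9 stand for the cells. Cxcl1, Cxcl2 and Cxcl5 are the CXC chemokine ligands, and Il1b is the cytokine beside them. All 8 were in the deposited table and all 8 passed the filter on low counts.

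The horns came from female C57BL/6 mice. In the groups other than SHAM the uterus was injured with ethanol, and the treatments were injected into the horn 4 days after the damage. Tissue was taken 2 weeks after injection. Of the groups, HG+ORG (6 horns) received a hydrogel with human endometrial organoids, HG (6 horns) the hydrogel and PBS (5 horns) saline. The remaining 6 horns are labelled SHAM, and the sources used here do not give what they received or whether they were damaged. The endometrium of each horn was pressed out with forceps, so each value is an average over all the cells that came out. Fewer mice were taken for tissue than horns were sequenced, so some horns share an animal, and which ones do is not given. The p-values therefore measure the spread between horns and may be too small. Human reads of the organoids were not told apart from mouse reads.

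Neutrophils leave the blood along gradients of CXC chemokines that bind the receptor Cxcr2. Epithelium, stroma, endothelium and macrophages can all make these ligands within hours of damage, in large part through the transcription factor NF-kappaB, and interleukin 1 beta is one of the signals that switch them on. Csf3r is the receptor for the growth factor G-CSF, and S100a8 and S100a9 pair as calprotectin, an abundant protein of the neutrophil cytosol. None of these genes belongs to neutrophils alone: monocytes also carry Csf3r, S100a8 and S100a9, and macrophages also make Il1b and Cxcl2. In a uterus, neutrophils come and go with the cycle, with mating and with injury.

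The start regions of the genes are shown because Cxcl1 and Cxcl2 hold the same short sequence, a further form of which is in Csf3r. The RefSeq table of mouse promoters (build GRCm38.p6) held 7 of the 8 genes, all but Cxcl5, and the search ran over 250 bases before to 50 bases after the annotated start. Each line gives the 250 bases before the start, 5′ to 3′ in the direction of the gene, and capitals mark matches to GGGANNTTCC on either strand, a form of the NF-kappaB (kB) site in which N is any base. Cxcl1 lies at chr5:90890995-90891244 and Cxcl2 at chr5:90903649-90903898, both on the plus strand. Csf3r lies at chr4:126024409-126024658 on the plus strand, and Il1b, shown as a member without a match, lies at chr2:129371140-129371389 on the minus strand.
Cxcl1: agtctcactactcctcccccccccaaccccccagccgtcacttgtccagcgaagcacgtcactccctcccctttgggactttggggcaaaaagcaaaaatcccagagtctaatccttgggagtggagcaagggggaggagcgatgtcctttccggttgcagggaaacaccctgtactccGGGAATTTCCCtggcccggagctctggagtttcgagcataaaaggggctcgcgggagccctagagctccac
Cxcl2: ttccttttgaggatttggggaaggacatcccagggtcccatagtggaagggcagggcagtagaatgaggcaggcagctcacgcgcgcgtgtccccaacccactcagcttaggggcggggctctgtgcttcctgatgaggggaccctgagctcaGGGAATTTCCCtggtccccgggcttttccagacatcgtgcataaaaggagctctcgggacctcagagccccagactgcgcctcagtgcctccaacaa
Csf3r: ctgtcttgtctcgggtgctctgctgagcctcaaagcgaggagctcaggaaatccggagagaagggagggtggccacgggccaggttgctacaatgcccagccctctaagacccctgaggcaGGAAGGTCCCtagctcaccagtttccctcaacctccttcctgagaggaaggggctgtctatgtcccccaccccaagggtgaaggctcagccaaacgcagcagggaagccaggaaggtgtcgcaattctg
Il1b: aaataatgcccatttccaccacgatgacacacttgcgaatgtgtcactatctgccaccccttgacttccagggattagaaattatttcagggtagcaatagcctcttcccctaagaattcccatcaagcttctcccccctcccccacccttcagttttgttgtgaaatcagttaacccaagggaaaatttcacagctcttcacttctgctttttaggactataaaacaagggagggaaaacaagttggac

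Cxcl1 and Cxcl2 carried the same 10 bases, GGGAATTTCC, first base at -71 and -97 from the start. In both the match is nearly a palindrome and also read on the other strand 1 base on. The Csf3r match, GGAAGGTCCC as printed, read on the other strand at -129. Over all 32851 promoters of the table, 1.47% held the motif, against these 3 of 7 members. Cxcl1 and Cxcl2 lie close together on chr5 and hold the same bases, so their matches may not be independent. A looser form, GGGNNNTTCC, was in 5.56% of promoters and in no further member. TTNCNNAA, a core of sites for C/EBP factors, was in 4 members (Il1b, S100a8, S100a9 and Cxcl2) and in 40.7% of promoters. GAGGAA, the core of sites for the myeloid factor PU.1, was in 4 members (Cxcr2, S100a8, Csf3r and Cxcl2) and in 28.3%. Both are frequent at this length, and the forms were settled after several had been looked at. Binding was not measured.

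Total counts ran from 7920918 to 14902952 per horn. One library, replicate 18 of HG+ORG (called HG+ORG 18; other horns are named alike), stood apart in these genes and in many others. Summed over each list, macrophage and stromal markers were highest there and epithelial markers lowest. Levels are in CPM, counts brought to one library size by edgeR's TMM factors. Lyz2, a lysozyme gene of myeloid cells, stood at 15209 CPM in HG+ORG 18, against 15.1 to 848 CPM in the other 22 horns. Epcam, which marks epithelium, was at 139.6 CPM in HG+ORG 18, against 553 to 2760.2 CPM in the other horns. The 6 stromal markers summed to 11300 CPM in HG+ORG 18, against at most 2591 CPM in the other horns. This sum does not show that each of them was highest there. With all horns, 3 of the 6 had higher and 3 lower fitted means in HG+ORG than in PBS. Results that rest on HG+ORG 18 are given with and without it.

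Csf3r (ENSMUSG00000028859), the G-CSF receptor, had a lowest, median and highest level of 1.26, 10.4 and 346 CPM in HG+ORG and of 3.63, 4.93 and 10.1 CPM in HG. In PBS its levels, in the order of horns 7 to 11 as for each gene below, were 37.8, 0.404, 2.73, 1.97 and 20.7 CPM, and in SHAM the lowest, median and highest were 0.247, 5.68 and 83.7 CPM. The high horns were HG+ORG 18 and 19, PBS 7 and 11 and SHAM 2, so every group but HG held at least 1, and all groups overlapped. On the log2 scale Csf3r averaged 4.16 ± 2.93 in HG+ORG, 2.45 ± 0.58 in HG, 2.28 ± 2.49 in PBS (n = 5) and 2.06 ± 2.91 in SHAM (SD, n = 6 in the other groups). These means lie well within each other's spread. In bulk samples such as these, fewer neutrophils and less RNA per neutrophil cannot be told apart.

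Cxcr2 (ENSMUSG00000026180), the receptor through which neutrophils sense the ligands, was low, from 0.148 to 72.0 CPM in HG+ORG (median 1.51) and from 0.117 to 1.44 CPM in HG (median 0.622). It was at 7.55, 0, 0.402, 0.0858 and 3.87 CPM in PBS and from 0 to 13.2 CPM in SHAM (median 1.06). The same 5 horns came first for Cxcr2 as for Csf3r. A count of 0 in PBS 8 and SHAM 3 allows up to 0.202 and 0.296 CPM, the level that 3 counts would give, so the receptor was not detectable there at this depth. Such limits cover counting error only.

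S100a8 (ENSMUSG00000056054), the smaller chain of calprotectin, reached 1422 CPM in HG+ORG 18 and 39.5 CPM in HG+ORG 19, and the lowest and median of HG+ORG were 0.519 and 4.11 CPM. In HG it ran from 1.32 to 6.92 CPM (median 2.29). In PBS it was at 18.6, 0.135, 1.53, 2.15 and 12.0 CPM, and in SHAM it ran from 0 to 41.8 CPM (median 2.13). S100a9 (ENSMUSG00000056071), its partner, ran from 0.741 to 2270.4 CPM in HG+ORG (median 5.56) and from 1.51 to 9.26 CPM in HG (median 3.78). It was at 24.0, 0, 2.17, 2.15 and 14.2 CPM in PBS and from 0.0988 to 59.8 CPM in SHAM (median 3.39). Both chains had the same 5 high horns as the receptors, and both were at 0 or 1 count in SHAM 3 and 4.

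**Figure D1:**
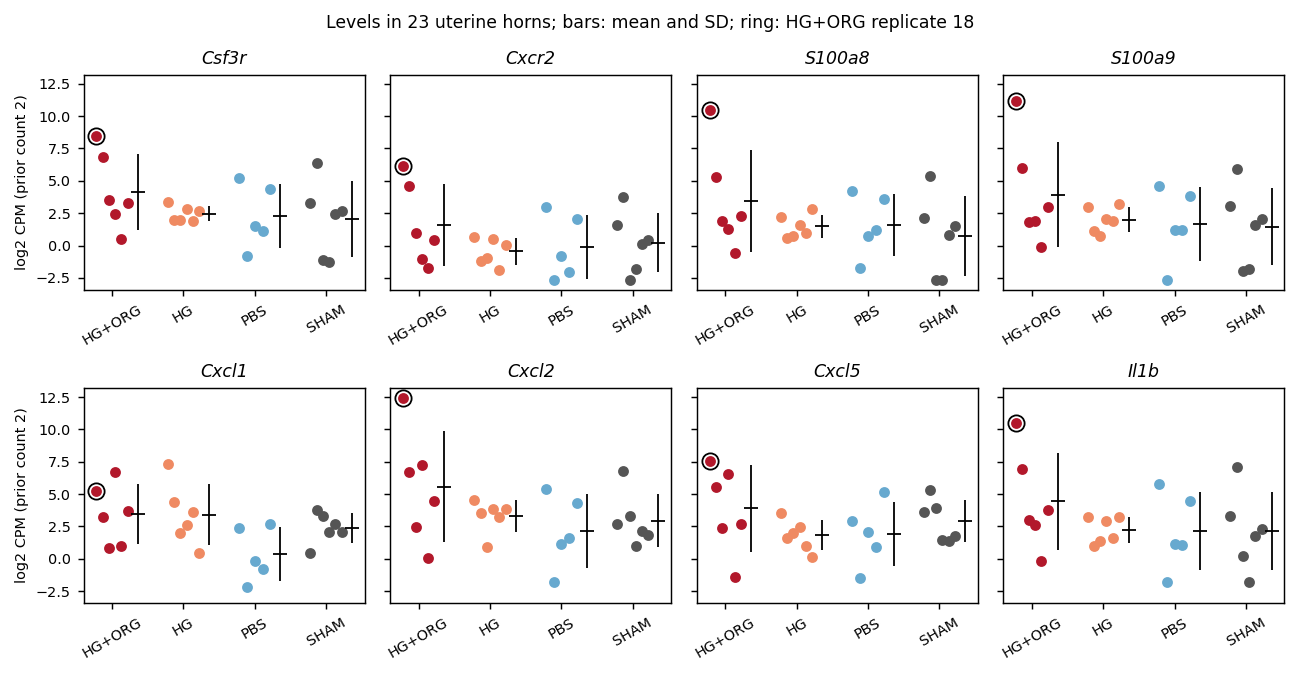
Levels of the 8 genes (log2 CPM with a prior count of 2) in each of 23 horns, grouped as HG+ORG, HG, PBS and SHAM, with the mean and SD of each group as a cross and bar. The ringed point is HG+ORG 18, the highest horn for every gene but Cxcl1, and the HG horns lie close together for the cell genes.

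The order of the horns was less close to that of the cell genes for the ligands than for Il1b, and least close for Cxcl1. Cxcl1 (ENSMUSG00000029380), known in mice as KC, was highest in HG+ORG 21 at 106 CPM and in HG 12 at 158 CPM, 2 horns with only 5.17 and 10.1 CPM of Csf3r. Its lowest, median and highest were 1.64, 11.2 and 106 CPM in HG+ORG and 1.21, 9.04 and 158 CPM in HG. In PBS it was at 4.97, 0.0673, 0.724, 0.429 and 6.19 CPM, and in SHAM it ran from 1.21 to 13.8 CPM (median 5.12). All 12 HG+ORG and HG horns lay above 3 of the 5 PBS horns, and PBS 7 and 11 lay within their range.

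Cxcl2 (ENSMUSG00000058427), known as MIP-2, was at 5607 CPM in HG+ORG 18, which is 45306 reads of that library. The next 3 horns were HG+ORG 21 at 151 CPM, HG+ORG 19 at 102 CPM and SHAM 2 at 109 CPM. Its median was 62.1 CPM in HG+ORG and 12.8 CPM in HG, where it ran from 1.72 to 22.6 CPM. It was at 42.7, 0.135, 2.01, 2.83 and 20.1 CPM in PBS and from 1.85 to 109 CPM in SHAM (median 5.23). HG+ORG thus held both the highest horn of the series and, in HG+ORG 22 at 0.890 CPM, a horn below every HG and SHAM horn.

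Cxcl5 (ENSMUSG00000029371), a ligand known from epithelium, was at 193, 93.5 and 46.9 CPM in HG+ORG 18, 21 and 19, the 3 highest horns of the series. The other 3 HG+ORG horns held 0.222 to 6.14 CPM. In HG it ran from 0.966 to 11.3 CPM (median 3.40). In PBS it was at 7.61, 0.202, 4.02, 1.72 and 36.4 CPM, and in SHAM it ran from 2.37 to 39.2 CPM (median 7.57). Of all horns, PBS 8 alone lay below the lowest HG+ORG horn, and the groups overlapped.

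Il1b (ENSMUSG00000027398), made by myeloid cells as a precursor that caspase-1 cleaves, followed the cell genes in its order over the horns. It was at 1425 CPM in HG+ORG 18, at 123 CPM in HG+ORG 19 and at 135 CPM in SHAM 2, and its lowest and median in HG+ORG were 0.741 and 10.7 CPM. In HG it ran from 1.88 to 9.34 CPM (median 5.12). In PBS it was at 53.9, 0.135, 2.09, 1.89 and 22.2 CPM, and in SHAM the lowest and median were 0.123 and 4.07 CPM. Its 5 highest horns were those of the 4 cell genes.

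**Figure D2:**
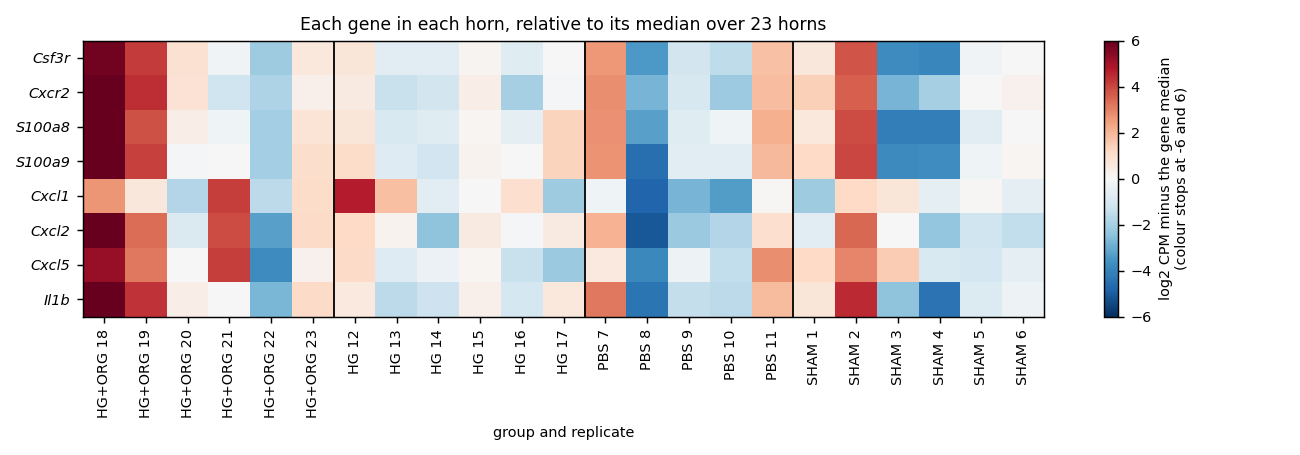
Each of the 8 genes in each of the 23 horns as log2 CPM minus the gene's median over all horns, with red above and blue below the median and the colour scale cut off at both ends. The 4 cell genes and Il1b colour the same columns (HG+ORG 18 and 19, PBS 7 and 11, SHAM 2), while HG 12 is the highest horn for Cxcl1, and HG+ORG 21 comes second for each of the 3 ligands.

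The comparison of HG+ORG with HG sets the hydrogel with organoids against the hydrogel without them. Of the 8 genes, 7 had higher fitted means in HG+ORG, and none passed the test over all features. The cell genes had fitted log2 folds of 3.82 (SE 1.37) for Csf3r, 4.47 (SE 1.53) for Cxcr2, 6.28 (SE 1.85) for S100a8 and 6.38 (SE 1.89) for S100a9. Il1b stood at 5.57 (SE 1.78), Cxcl2 at 6.32 (SE 1.80) and Cxcl5 at 3.70 (SE 1.21), while Cxcl1 stood at -0.26 (SE 1.09).
By edgeR's quasi-likelihood test with Benjamini-Hochberg adjustment the adjusted p was 0.270 to 0.317 for those 7 genes and 0.981 for Cxcl1, with 0.0% of all features past 0.05. At an unadjusted p under 0.05, 7 of the 8 genes passed, against 9.81% of all features. None of the 8 had groups that did not overlap, against 0.181% of features.
These folds leaned on 1 horn. Without HG+ORG 18, only Cxcl5 kept an unadjusted p under 0.05, 1 of 8 genes against 12.0% of all features, and its fold was 2.79 (SE 1.16, edgeR adjusted p = 0.311). The folds of S100a8 and S100a9 were then 1.66 (SE 1.28) and 1.71 (SE 1.29), that of Cxcl2 was 2.19 (SE 1.23) and that of Il1b 2.44 (SE 1.39). With DESeq2, which judges single genes by another estimate of their spread, Il1b (adjusted p = 0.00750), Cxcl5 (0.0329) and Cxcr2 (0.0470) passed, among 0.938% of the features it gave an adjusted p. DESeq2 gave no p for Cxcl2, S100a8 and S100a9. Without HG+ORG 18, none of the 8 passed with DESeq2 while 3.97% of features did, and the smallest adjusted p was 0.108 for Cxcl5. limma-voom, which works on log values, put none of the 8 under an unadjusted p of 0.05, and its fold for S100a9 was 1.65.

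**Figure D3:**
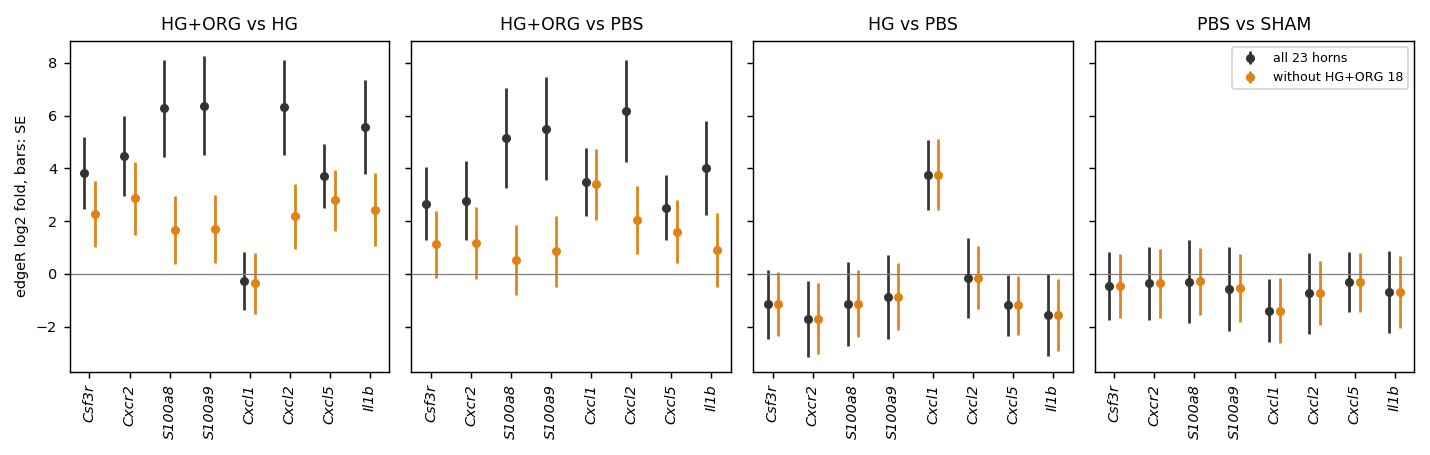
Fitted log2 folds of the 8 genes (points) with their standard errors (bars) in 4 comparisons, with all 23 horns in black and without HG+ORG 18 in orange. S100a8, S100a9 and Cxcl2 drop by more than 4 log2 units in HG+ORG against HG when that horn is left out, and Cxcl1 stays at 3.75 and 3.76 in HG against PBS.

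The comparison of HG+ORG with PBS, the full treatment against saline, gave a like picture with Cxcl1 added. All 8 genes had higher fitted means in HG+ORG, with log2 folds of 2.67 (SE 1.39) for Csf3r, 5.15 (SE 1.89) for S100a8, 6.18 (SE 1.94) for Cxcl2 and 3.49 (SE 1.30) for Cxcl1. The adjusted p by edgeR was 0.709 or more for each, and 0.0% of features passed. At an unadjusted p under 0.05, 5 of the 8 passed (S100a8, S100a9, Cxcl1, Cxcl2 and Il1b), against 6.09% of features, and none of the 8 had groups that did not overlap, against 0.107%. Without HG+ORG 18, 1 of the 8 passed, against 2.77% of features: Cxcl1 with a fold of 3.40 (SE 1.35, edgeR adjusted p = 1.00), while that of S100a8 was 0.54 (SE 1.32). Without HG+ORG 22, the lowest horn of its group for 7 of the genes, all 8 had an unadjusted p under 0.05. So did 1601 of 17710 features, and none passed after adjustment (smallest edgeR adjusted p = 0.334).

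The comparison of HG with PBS asks what the hydrogel did without organoids. Cxcl1 alone stood out, with a log2 fold of 3.75 (SE 1.32, edgeR adjusted p = 0.991), and it averaged 33.7 ± 61.4 CPM in HG (SD, n = 6) and 2.48 ± 2.88 CPM in PBS (n = 5). It was the 1 gene of 8 at an unadjusted p under 0.05, against 3.37% of features, and 0.0% of features passed after adjustment. Leaving out HG 12 gave a fold of 1.82 (SE 1.09, edgeR adjusted p = 0.979) and an unadjusted p above 0.05. The other 7 genes had negative folds, from -0.14 (SE 1.51) for Cxcl2 to -1.69 (SE 1.44) for Cxcr2, and 5 of these 7 had positive folds with limma-voom. None of the 8 had groups that did not overlap, against 0.152% of features. HG was also the group with the least spread in the cell genes: the SD of log2 CPM was 0.58 for Csf3r, against 2.49 to 2.93 in the other groups.

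The comparison of PBS with SHAM showed no difference beyond the spread of horns. All 8 genes had negative folds, from -0.29 (SE 1.57) for S100a8 to -1.39 (SE 1.20) for Cxcl1, with none under an unadjusted p of 0.05 against 2.17% of features, 0.0% past the adjusted threshold, and none without overlap against 0.294%. The signs rested on SHAM 2: without it 7 of the 8 folds were positive, for example 1.54 (SE 1.25) for Csf3r and 2.05 (SE 1.52) for Il1b. With limma-voom the folds of Csf3r and S100a8 were positive too. Comparisons that share the HG+ORG, HG or PBS horns are not independent of each other.

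Across the 23 horns, coefficients were higher among the cell genes and Il1b than between these and the ligands. All 28 pairs of the 8 genes were compared by Spearman's rho and Pearson's r of log2 CPM, with permutation tests of 100000 resamples adjusted over the 28 pairs. The 6 pairs of cell genes had rho of 0.890 to 0.974, and Il1b had rho of 0.920 to 0.978 with the 4 cell genes. The 12 pairs of a ligand with a cell gene had rho of 0.287 to 0.805, and 8 of them passed an adjusted p of 0.05. All 4 that missed it were pairs of Cxcl1. With Il1b, rho was 0.804 for Cxcl2, 0.693 for Cxcl5 and 0.374 for Cxcl1.
For Csf3r and Il1b, rho was 0.957 and r 0.976 (both with the smallest p that the resamples can give, 1e-05, adjusted 2.5e-05 and 2.2e-05). For Csf3r and Cxcl2, rho was 0.750 and r 0.812 (permutation, adjusted p = 0.000105 and 5.6e-05). For Csf3r and Cxcl5 rho was 0.670 and r 0.695 (permutation, adjusted p = 0.00100 and 0.000249). For Csf3r and Cxcl1 rho was 0.379 and r 0.406 (permutation, adjusted p = 0.0866 and 0.0583). A difference between these coefficients was not tested.
Leaving out the 2 horns farthest from the median of Csf3r gave r of 0.966 with Il1b, 0.690 with Cxcl2, 0.533 with Cxcl5 and 0.322 with Cxcl1. Without HG+ORG 18, r was 0.972, 0.734, 0.600 and 0.326 for the same pairs. With each group's mean taken off first, r was 0.975, 0.791, 0.684 and 0.390. Within the 17 horns of HG+ORG, HG and PBS, r was 0.987, 0.879, 0.813 and 0.4995. There Csf3r and Cxcl1 did pass, with a rho of 0.517 (permutation, adjusted p = 0.0404, and 0.0474 for r). Of the 12 pairs of a ligand with a cell gene, 9 passed by rho in those horns. Of the 28 pairs, 23 had an adjusted p of rho under 0.05 with all horns, and 23 without HG+ORG 18. No share over all pairs of features is given beside these counts, so they do not set these genes apart from others. Among ligands, Cxcl2 and Cxcl5 had a rho of 0.790, and Cxcl1 had 0.746 with Cxcl2 and 0.590 with Cxcl5. Horns that share an animal may make these p-values too small.

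**Figure D4:**
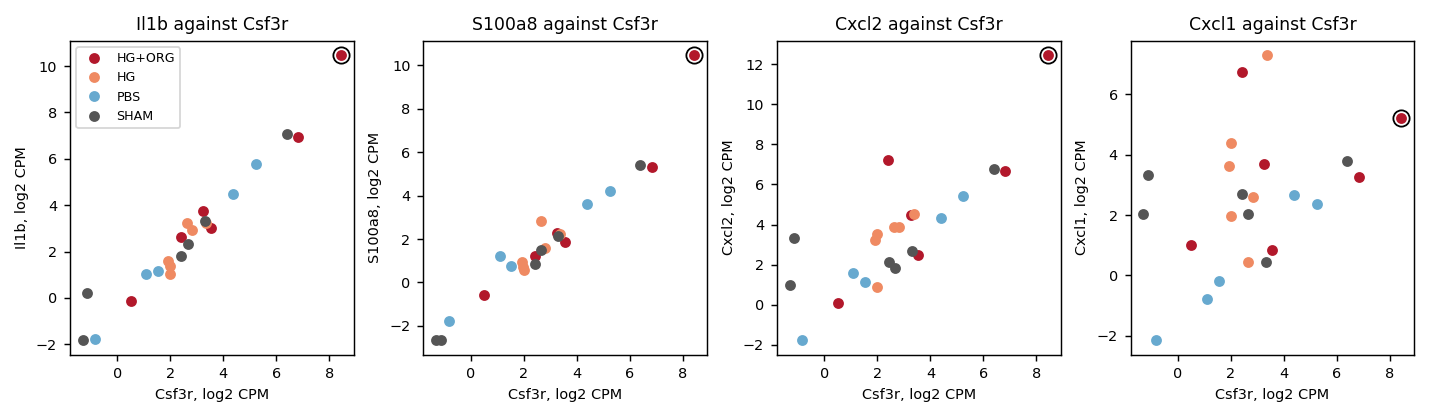
Il1b, S100a8, Cxcl2 and Cxcl1 (log2 CPM, vertical axes) against Csf3r (log2 CPM, horizontal axes), 1 point for each of 23 horns coloured by group, with HG+ORG 18 ringed. Il1b and S100a8 lie along a line through all 4 groups (rho 0.957 and 0.940), and Cxcl1 scatters widely (rho 0.379).

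Reads of each gene per read of Csf3r, given with exact 95% intervals for the 19 horns with at least 20 Csf3r reads, set the genes against 1 cell gene within a horn. In the 18 horns other than HG+ORG 18, the highest ratio was 3.29 to 5.37 times the lowest for S100a8, S100a9 and Il1b. For Cxcr2 it was 8.89 times the lowest, which was in HG 16 and rested on 1 Cxcr2 read. S100a8 ran from 0.304 to 1.15 reads per Csf3r read in those 18 horns (median 0.438), S100a9 from 0.286 to 1.53 (median 0.684) and Il1b from 0.491 to 1.62 (median 0.986). In HG+ORG 18 these ratios were 4.12 (interval 3.95 to 4.29), 6.57 (6.31 to 6.84) and 4.12 (3.96 to 4.30), above every other horn. Reads are not independent molecules, so these intervals cover counting error only. Cxcr2 was the exception: its ratio in HG+ORG 18 was 0.209 (0.190 to 0.228), within the 0.0323 to 0.287 of the others. S100a9 per S100a8 read was 1.60 in HG+ORG 18, against 0.941 to 1.93 in 15 other horns with enough reads. The proportions of S100a8, S100a9 and Il1b to Csf3r in HG+ORG 18 thus lay outside the range of the other 18 horns. The summed macrophage and stromal markers were highest in the same horn.

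Ligand reads per Csf3r read spanned far more. In HG+ORG 21, the ratios were 20.5 (15.3 to 28.1) for Cxcl1, 29.2 (21.8 to 39.9) for Cxcl2 and 18.1 (13.5 to 24.8) for Cxcl5, each the highest of its kind. In HG 12 the Cxcl1 ratio was 15.6 (13.0 to 18.8), while its Cxcl2 and Cxcl5 ratios were 2.23 (1.80 to 2.77) and 1.11 (0.867 to 1.42). In HG+ORG 18 the Cxcl2 ratio was 16.2 (15.6 to 16.9), while Cxcl1 and Cxcl5 stood at 0.108 and 0.558, below the medians of 0.471 and 0.710. Per Csf3r read, each of these 3 horns was thus high in a different set of ligands. By level, HG+ORG 18 was the highest horn for Cxcl2 and Cxcl5 and the third for Cxcl1, at 37.4 CPM. Cxcl2 per Csf3r read lay between 2.13 and 2.95 in 5 of the 6 HG horns, the sixth being HG 14 at 0.453, and between 0.560 and 1.43 in the 8 PBS and SHAM horns. That last contrast was noticed in the values and not tested.

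**Figure D5:**
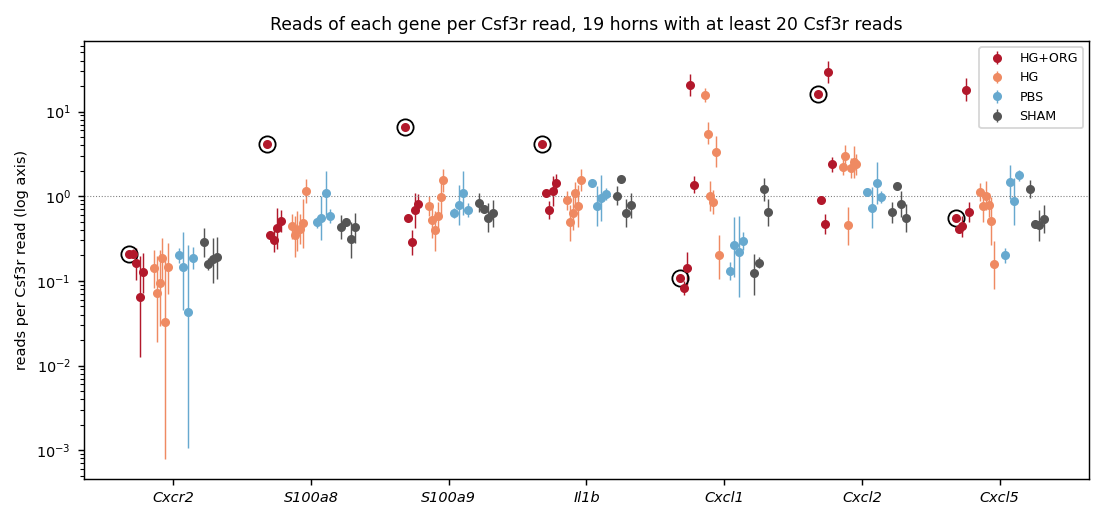
Reads of each gene per Csf3r read (log axis) in the 19 horns with at least 20 Csf3r reads, coloured by group, with exact 95% intervals as bars, the dotted line at 1 and HG+ORG 18 ringed. Ratios of S100a8, S100a9 and Il1b put HG+ORG 18 above all other horns, and HG+ORG 21 leads for the 3 ligands.

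Other neutrophil markers followed the cell genes in part. Of 18 listed markers 11 were tested, and the genes of young granules (Ngp, Camp, Mpo and Elane) were among those not tested. Spearman's rho with Csf3r passed an adjusted p of 0.05 (permutation, over the 82 tested genes of 8 lists) for 8 of the 11, 7 with a positive sign, and without HG+ORG 18 for 6, 5 with a positive sign. For comparison, 7.25% of all features had a rho with Csf3r of at least 0.477, the lowest positive one that passed in these lists, and 5.85% had at least 0.537, the lowest that passed without HG+ORG 18. Trem1, an activating receptor of myeloid cells, had a rho of 0.947, the decoy receptor Il1r2 0.911 and the granule protease Mmp9 0.842 (Trem1 and Il1r2 were named after their values were seen). Retnlg, a secreted protein of mouse neutrophils, had 0.575 (permutation, adjusted p = 0.0171), and 0.514 without HG+ORG 18 (adjusted p = 0.0569).
Ly6g, the surface antigen by which mouse neutrophils are most often sorted, went the other way, with a rho of -0.581 (permutation, adjusted p = 0.0171). It was at 3.34 CPM in HG+ORG 18 and 8.80 CPM in HG+ORG 19, against 29.7 CPM in SHAM 4, where Csf3r had 2 reads. Without HG+ORG 18 the rho of Ly6g was -0.538 (permutation, adjusted p = 0.0412). Ly6g lies among related Ly6 genes, so its reads may be uncertain, but their placement was not tested. Padi4, which citrullinates histones, had a rho of -0.376 and Ltf, the lactoferrin of granules that uterine epithelium also secretes, 0.246, and neither passed. Ltf reached 17725 CPM in SHAM 3, where S100a8 had no read. The 10 tested markers other than Ltf summed to 145 to 1920 CPM in HG+ORG, 48.2 to 309 in HG, 154 to 259 in PBS and 148 to 389 in SHAM. Outside HG+ORG 18, where Padi4 was at 12.5 CPM, much of this sum was Padi4. Its medians were 155 CPM in HG+ORG, 140 in HG, 161 in PBS and 134 in SHAM. In SHAM 4, Padi4 made 356 of the 389 CPM, so the sum does not stand for the level of the cell genes. In HG+ORG against HG, 7 of the 11 markers had higher fitted means and 6 of these an unadjusted p under 0.05, against 5.18% of all features higher at that threshold. Without HG+ORG 18 it was 0 higher and 1 lower, against 2.71% higher and 9.27% lower over all features. Their median log2 fold was 2.84 with that horn and 0.09 without it, against 0.04 and 0.01 over all features.

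The wider recruitment pathway, 31 listed genes of which 28 were tested, held signals ordered like Csf3r over the horns and signals that were not. Of the 28, 13 had a positive rho with Csf3r past an adjusted p of 0.05 and 1 a negative rho with all horns, and 10 a positive rho without HG+ORG 18. Il1rn, the antagonist that blocks the receptor of interleukin 1, had a rho of 0.959 and stood at 1528 CPM in HG+ORG 18. Cxcl3, a further Cxcr2 ligand, had 0.744 and stood at 1723 CPM in HG+ORG 18, against at most 7.61 CPM in the other horns.
Csf3, which encodes G-CSF, the ligand of Csf3r, was the 1 with a negative rho, -0.503 (permutation, adjusted p = 0.0374), and -0.432 without HG+ORG 18, where no negative rho passed. Csf3 was highest in HG+ORG 21 at 102 CPM and in SHAM 3 at 43.0 CPM. The same 2 horns led for Ptgs2, the inducible cyclooxygenase, at 772 and 736 CPM, against 2.71 to 348 CPM in the other 21 horns. Il1a, named after its values were seen, was at 274 and 142 CPM there. In SHAM 3 the ligands were at 9.98, 9.88 and 14.9 CPM for Cxcl1, Cxcl2 and Cxcl5, while Csf3r had 3 reads and Cxcr2 and S100a8 none. The kappaB inhibitor Nfkbia, a target of its own pathway, was at 935 CPM in HG+ORG 21, 603 in HG+ORG 18 and 546 in SHAM 3, and its rho with Csf3r was 0.127. Nfkbiz had 0.314, Tlr4 -0.178, Casp1, which cleaves the Il1b precursor, -0.03, and Il1r1, the receptor of interleukin 1, 0.532. In HG+ORG against HG, 22 of the 28 genes had higher fitted means and 12 of these an unadjusted p under 0.05, against 5.18% of all features, with a median log2 fold of 1.04. Without HG+ORG 18 it was 2 higher and 1 lower at that threshold, against 2.71% and 9.27% of features, with a median of 0.54. None passed after adjustment.

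Macrophage and monocyte markers were ordered like Csf3r only in part. Of 15 markers, all tested, 10 had a rho with Csf3r past an adjusted p of 0.05, and 4 without HG+ORG 18. Their summed level was 284 to 32180 CPM in HG+ORG (median 922), 426 to 1224 in HG, 196 to 1015 in PBS and 196 to 919 in SHAM, and none of the 15 was at 0 in HG+ORG 18. Of the other horns high in the cell genes, PBS 7 and 11 stood at 1015 and 982 CPM, while HG+ORG 19 at 551 CPM and SHAM 2 at 607 CPM lay below HG+ORG 21 at 2288 CPM and HG 13 at 1224 CPM. In HG+ORG against HG, 11 of the 15 had an unadjusted p under 0.05 with a higher fitted mean, against 5.18% of all features, and none without HG+ORG 18, against 2.71%. Red cell markers, which would show blood left in the tissue, had a rho with Csf3r of 0.498 to 0.588, and 5 of 5 passed, 1 without HG+ORG 18. Their summed level was 25.0 to 422 CPM in HG+ORG, 77.5 to 602 in HG, 6.60 to 675 in PBS and 9.01 to 161 in SHAM. None of 8 epithelial, 5 squamous and 6 stromal markers had a rho with Csf3r past that threshold. Of 4 tested eosinophil and mast cell markers 1 passed, Siglecf, with a rho of 0.739 (permutation, adjusted p = 0.000911). Without HG+ORG 18 its rho was 0.702 (permutation, adjusted p = 0.00346). The part of macrophages, eosinophils, stroma or blood in the levels of the 8 genes was not tested.

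The genes whose order over the 23 horns was most like that of each member were sought among 13631 features with a mean log2 CPM of at least 1. Cd300lf, an inhibitory receptor of myeloid cells, and Il1rn were the top 2 for each of Csf3r, Cxcr2, S100a8, S100a9 and Il1b, with rho from 0.899 to 0.971. The ligands each had other neighbours. Among the closest to Cxcl1 were Zfp36 (0.831), which speeds the decay of cytokine mRNAs, and Maff (0.817), a small bZIP factor. Cxcl2 came closest to Cdk11b (0.910), Pde4b (0.898) and Stra6l (0.893), and Cxcl5 to Selplg (0.956), the ligand of P-selectin, Slc16a3 (0.953), a lactate exporter, and AA467197 (0.946). These are among the highest of many and are given as a description.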

How the data were processed

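Bulk RNA was sequenced from the endometrium of 23 uterine horns, as stranded poly(A) libraries per the labels' protocols. The authors deposited raw counts per gene. Per the submitters' processing notes, HISAT2 2.2.1, featureCounts 2.0.3 and build GRCm39 were used, among other tools; no settings are stated there. Files and GRCm38.p6 promoters were joined by symbol only. Total counts were 7920918 to 14902952 per horn.

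edgeR 4.0.16 (TMM, filterByExpr; 17708 of 18682 features kept) fitted all 4 groups in 1 quasi-likelihood model, with Benjamini-Hochberg adjustment at 0.05; the code was tested on simulated data. Levels are TMM-scaled CPM, or log2 CPM with a prior count of 2. SEs were derived as the size of the log2 fold divided by the root of the F statistic. The fitted fold compares mean counts, so a single high horn weighs heavily. The 8 genes and the gene lists were chosen with earlier results of these data known. Named list genes were those of highest mean level, plus Ly6g, Retnlg, Csf3, Cxcl3 and Il1rn. Some genes that meet the naming rules are not reported here. Alternatives were DESeq2 1.42.0, limma-voom 3.58.1, DESeq2 size factors, no filter, 2 groups only, a prior count of 0.5 and each horn left out. DESeq2 without HG+ORG 18, the list correlations with Csf3r and the sum without Ltf were added after seeing the data.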

Additional observations from a re-analysis of the deposited data

Results flagged for a closer look

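Among 32 sets of horns (8 genes in 4 groups) checked for a horn far from the rest, 1 stood out, where chance gives about 1 in 20. Cxcl2 in HG 14 was at 0.909 log2 CPM, the lowest of its group, and the nearest other HG horn was at 3.22, a gap of 0.641 of the whole range of the group. HG 14 was also the HG horn with the lowest Cxcl2 per Csf3r read. HG+ORG 18 was not set apart by this check.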

How the results depend on the processing

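Under the alternatives tried, no gene of the 8 passed the adjusted threshold in any comparison except 3 in HG+ORG against HG with DESeq2. At an unadjusted p under 0.05 in HG+ORG against HG, DESeq2 put 4 of the 8 under it, against 1767 of 17708 features. It gave no p for Cxcl2, S100a8 and S100a9 there. With limma-voom it was 0 of the 8, against 1291 features, and leaving out each horn gave 1 to 7, against 1312 to 2117. In HG+ORG against PBS, limma-voom gave 1, against 348 features, and DESeq2 without HG+ORG 18 gave 1, against 703. Leaving out each horn there gave 1 to 8, against 489 to 1717 features. In HG against PBS, leaving out each horn gave 0 to 1, against 273 to 1315 features. With limma-voom, log2 folds changed sign for Csf3r (0.13) and S100a8 (0.89) in PBS against SHAM, and for Csf3r (0.20), Cxcr2 (0.012), S100a9 (0.77), Cxcl2 (1.29) and Il1b (0.19) in HG against PBS.

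Leaving out each horn turned further folds. In PBS against SHAM the ranges were -1.44 to 1.54 for Csf3r, -1.48 to 1.21 for Cxcr2, -1.09 to 1.97 for S100a8, -1.43 to 1.46 for S100a9, -1.84 to 1.40 for Cxcl2, -1.86 to 0.51 for Cxcl5 and -1.96 to 2.05 for Il1b. In HG against PBS they were -1.19 to 0.0084 for S100a9, -0.46 to 0.97 for Cxcl2 and -1.72 to 0.37 for Cxcl5, and in HG+ORG against HG -1.42 to 1.67 for Cxcl1. The horns that turned a fold were SHAM 2, and PBS 8 for S100a8 and Cxcl5, in PBS against SHAM; PBS 7, PBS 11 and, for Cxcl2, HG 14 in HG against PBS; and HG 12 and HG+ORG 22 in HG+ORG against HG. None of these folds passed, and the cause was not tested. No paired analysis was possible because which horns share an animal is not given and the groups share no replicate numbers. With 5 or 6 horns that may share animals, a wide spread between horns, and few reads of Cxcr2, even large differences could be missed. The high fitted folds of S100a8, S100a9 and Cxcl2 in HG+ORG against HG did not pass with edgeR.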
